A study of Mus musculus with 6 samples.

Results

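The integrin transcripts of hippocampal microglia were compared between lipid droplet-high (LD-high) and lipid droplet-low (LD-low) cells of aged mice. The 10 integrin genes were chosen by name, as the rows of the deposited expression table with the symbols Itgam, Itgb2, Itgal, Itga4, Itga6, Itga9, Itgav, Itgb1, Itgb3 and Itgb5. All 10 were found among the 14148 genes of the table. Microglia, the resident macrophages of the brain, came from the hippocampi of male C57BL/6 mice aged 18 months, with no transgene or treatment named in the labels. Live cells with surface CD11b and low CD45 were stained with BODIPY, a dye for neutral lipid, and sorted into 3 LD-high and 3 LD-low samples of about 10000 cells. Each sample pooled hippocampi from 3 mice, and the labels do not say whether the pools or same-numbered samples share mice, so p-values cover the spread of these 6 libraries, which may be technical. CD11b is the protein made from Itgam, so every cell was selected for that integrin before its RNA was measured.

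Integrins are surface receptors made of 1 alpha and 1 beta chain that bind extracellular matrix or proteins of other cells. Itgb2 pairs with Itgam to form the complement receptor of microglia, which takes up particles coated with fragments of C3, and with Itgal, better known from lymphocytes. Itgb1 pairs with Itga4, Itga6, Itga9 and Itgav, while Itgav also pairs with Itgb3 and Itgb5 to bind vitronectin and latent TGF-beta. Inside the cell, talin (Tln1) and kindlin bind the beta tail and switch the receptor on, under control of the small GTPase Rap1.

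The libraries held between 15895576 and 38489448 reads in genes. All 10 microglia markers examined were present, and their summed level ran from 1546511 to 1757555 normalized counts in LD-high libraries, against 1577706 to 1842810 in LD-low libraries, with no marker past the limma test (1 at an unadjusted p under 0.05; edgeR called 0 and DESeq2 1). A normalized count is a read count divided by 1 size factor per library, as deposited. Neutrophil markers stood apart between the groups: the 8 markers analysed had 0 reads in all 3 LD-high libraries, including S100a8, S100a9 and Ngp, against a summed level of 1236 to 4576 normalized counts in LD-low libraries. The 6 that reached the filter on low values did so through the LD-low libraries alone, which fixed their direction, so their test adds nothing to these values. Choroid plexus epithelium markers tended the other way, with summed levels of 1719 to 5592 in LD-high and 366 to 1795 in LD-low libraries, which overlapped. In limma 3 of 5 tested rose, where 1.53% of all tested genes were called higher. For these markers edgeR called 3 and DESeq2 2. In such bulk samples, fewer cells of a type and less RNA per cell cannot be told apart.

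The level of the integrins differed far more between genes than between the sorted fractions. Per kilobase of the longest annotated transcript, Itgb5 averaged 41908 ± 2001 normalized counts per kb in LD-high and 38386 ± 5096 in LD-low libraries (mean ± SD, n = 3 each). It ranked 18 of 14148 genes by mean normalized count, and 20 of the 12949 genes with an annotated length by normalized count per kb. Itgam followed with 10882 ± 822 normalized counts per kb in LD-high and 11758 ± 502 in LD-low libraries. Next in order came Itgb2 (9305 ± 588 per kb in LD-high, 8961 ± 970 in LD-low), Itgb1 (3958 ± 108 in LD-high, 3785 ± 501 in LD-low) and Itga6 (2859 ± 196 in LD-high, 2667 ± 201 in LD-low). Itgav, Itgb3 and Itga9 formed a lower tier, with averages of 1022 ± 132, 684 ± 43 and 553 ± 52 per kb in LD-high libraries, against 902 ± 111, 651 ± 68 and 540 ± 43 in LD-low libraries. Itgal and Itga4 lay more than 2 orders of magnitude below these, at 1.52 ± 1.91 and 0.366 ± 0.153 per kb in LD-high libraries and 3.65 ± 0.66 and 1.56 ± 0.63 in LD-low libraries. Among neighbours in this order, the ranges over the 6 libraries overlapped for Itgb3 and Itga9 and for Itgal and Itga4, and did not overlap for Itgam and Itgb2 or for Itgav and Itgb3. Within each library Itgb3 nonetheless lay above Itga9. The order of close neighbours depended on the transcript length used: with the mean length of the annotated coding transcripts, Itgb2 lay above Itgam (20528 and 16698 per kb over all libraries) and Itga9 above Itgb3 (1198 and 667).

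**Figure D1:**
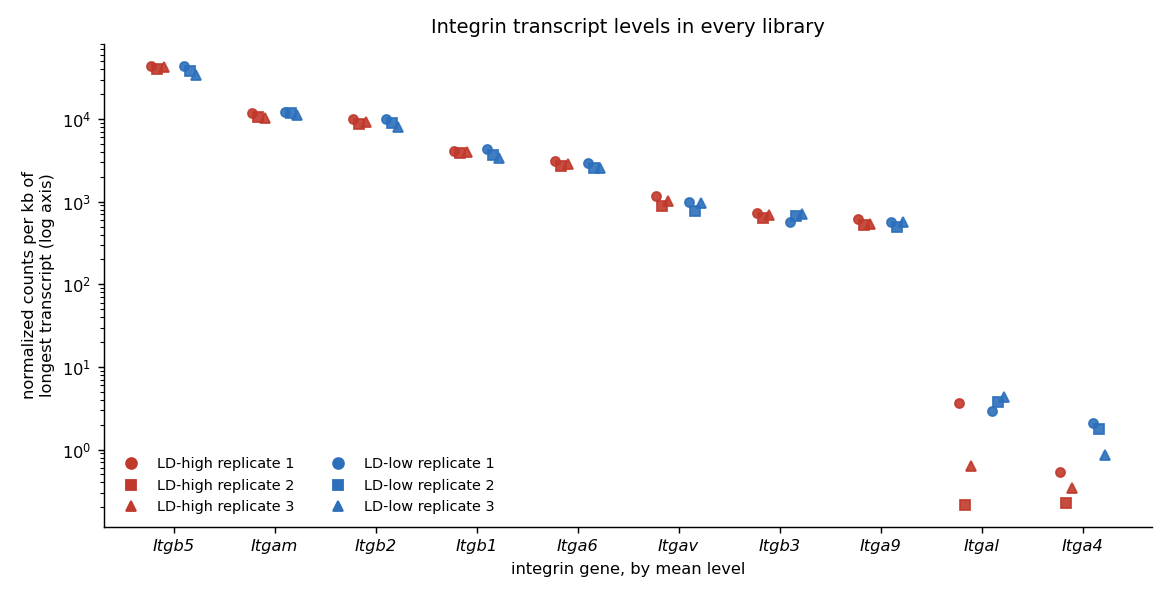
Normalized counts per kilobase of the longest transcript (log axis) for the 10 integrins, in order of mean level; red points are LD-high and blue points LD-low libraries, with a circle, square and triangle for replicates 1, 2 and 3. Itgb5 lies near 40147 per kb, Itgal and Itga4 below 5 per kb, and the colours separate only for Itga4.

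Promoter windows were available for 6 of the 10 genes, as the 250 bases before the start site (RefSeq, GRCm38.p6, plus strand). The windows of the gene with the highest level, of the gene for the sorted surface marker and of the gene with the lowest level are shown, with matches to a GC box (GGGCGG or CCGCCC) and to the Ets core bound by the myeloid factor PU.1 (GAGGAA or TTCCTC) in capitals; the motifs do not overlap each other here. The Itgb5 window is chr16:33829415-33829664, the Itgam window chr7:128062390-128062639 and the Itga4 window chr2:79255176-79255425.
Itgb5: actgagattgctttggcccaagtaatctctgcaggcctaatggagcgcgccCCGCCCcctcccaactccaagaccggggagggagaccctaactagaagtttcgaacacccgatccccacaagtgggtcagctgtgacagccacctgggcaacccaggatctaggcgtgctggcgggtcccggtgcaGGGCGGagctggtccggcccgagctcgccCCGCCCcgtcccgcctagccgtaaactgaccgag
Itgam: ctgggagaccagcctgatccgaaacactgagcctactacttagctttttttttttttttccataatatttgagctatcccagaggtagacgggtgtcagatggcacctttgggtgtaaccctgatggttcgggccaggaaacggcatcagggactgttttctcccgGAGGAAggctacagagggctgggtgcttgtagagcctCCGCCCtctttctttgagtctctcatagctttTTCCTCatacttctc
Itga4: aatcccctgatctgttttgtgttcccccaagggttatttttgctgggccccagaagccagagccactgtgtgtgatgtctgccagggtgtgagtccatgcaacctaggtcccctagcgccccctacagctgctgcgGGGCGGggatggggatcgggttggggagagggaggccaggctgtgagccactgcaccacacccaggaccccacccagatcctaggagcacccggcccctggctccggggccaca
The Itgb5 window held 3 GC boxes, 199, 63 and 34 bases before the start, and no match to the Ets core. The Itgam window held 2 matches to the Ets core, 84 and 15 bases before the start, and 1 GC box at 47. The Itga4 window held 1 GC box at 114. Of all 32851 windows of this length, 32.7% held the GC box and 23.3% the Ets core, and the TATA box (TATAAA or TTTATA), found in 12.4%, was in none of these 3. A match is a stretch of letters and not evidence of binding.

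None of the integrins passed the test between LD-high and LD-low microglia. With limma, 0 of the 9 tested genes were called, where 3.36% of all 11624 tested genes were; edgeR and DESeq2 on the recovered reads likewise called 0, where 3.24% and 5.85% of genes were called. At an unadjusted p under 0.05, limma had 1 of the 9 (Itgal), where 19.8% of all tested genes lay below it, edgeR had 0 of 9 (19.4% of genes) and DESeq2 had 1 of 10 (Itga4; 17.9% of genes). The median log2 change of the 9 was 0.07, beside -0.01 over all tested genes, with 7 of 9 above 0, where 48.7% of all tested genes were. For the 8 abundant integrins, with over 1000 normalized counts in every library, the 95% intervals of the change bounded it: the largest bound in either direction was 1.31-fold, for Itgav. The remaining integrin, Itga4, did not reach the filter of 10 normalized counts in at least 3 libraries. The number of calls over all genes depended on single libraries: from 390 it went to 229, 199 and 89 without LD-high replicates 1, 2 and 3, and to 68 and 43 without LD-low replicates 2 and 3.

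**Figure D2:**
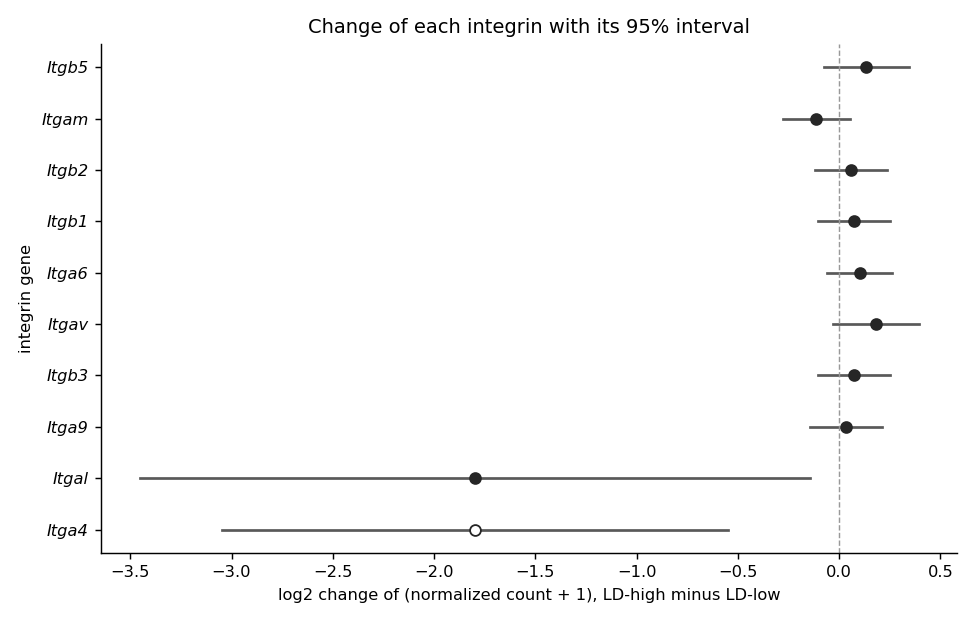
Log2 change of each integrin (LD-high minus LD-low, on log2 of the normalized count + 1) with its 95% interval, in order of level from top to bottom; filled points were tested and the open point (Itga4) is from the fit without a filter on low values. The intervals of the 8 abundant integrins lie within 0.40 of 0 and cross it, while those of Itgal and Itga4 are wide and lie below 0.

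Neither chain of the complement receptor passed the test singly. Itgam (chromosome 7, 135206154 to 135271674 in mm9), the alpha chain of that receptor, had 56747, 50752 and 49301 normalized counts in LD-high replicates 1, 2 and 3, against 58991, 56241 and 54184 in LD-low replicates 1, 2 and 3. The LD-high values were lower on average, and LD-high replicate 1 lay within the LD-low range. The log2 change was -0.11 ± 0.08 (SE), with an adjusted p of 0.438 and a 95% interval from 0.825-fold to 1.04-fold. Its partner Itgb2 (chromosome 10, 76992997 to 77028453) had 29554, 26136 and 27215 normalized counts in LD-high libraries, against 29588, 26415 and 23835 in LD-low libraries, so the groups overlapped nearly throughout. Its log2 change was 0.06 ± 0.08 (adjusted p 0.750), and it went to -0.02 without LD-low replicate 3.

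Within each library, the ratio of Itgam to Itgb2 transcripts, per kilobase, was 1.19, 1.20 and 1.12 in LD-high replicates 1, 2 and 3, against 1.23, 1.32 and 1.41 in LD-low replicates 1, 2 and 3. All LD-high ratios lay below all LD-low ratios, a difference of -0.17 on the log2 scale, which does not depend on how libraries were scaled. With the mean length of the coding transcripts the ratio averaged 0.767 in LD-high and 0.865 in LD-low libraries, with the same difference on the log2 scale. An exact 2-sided permutation test gave p = 0.10, the smallest that 3 against 3 libraries allow, and 0.40 after Benjamini-Hochberg adjustment over the 8 alpha to beta ratios compared. The neutrophil markers, which were at 0 in LD-high libraries, were highest in LD-low replicate 3, where this ratio was highest too; their part in it was not tested.

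**Figure D3:**
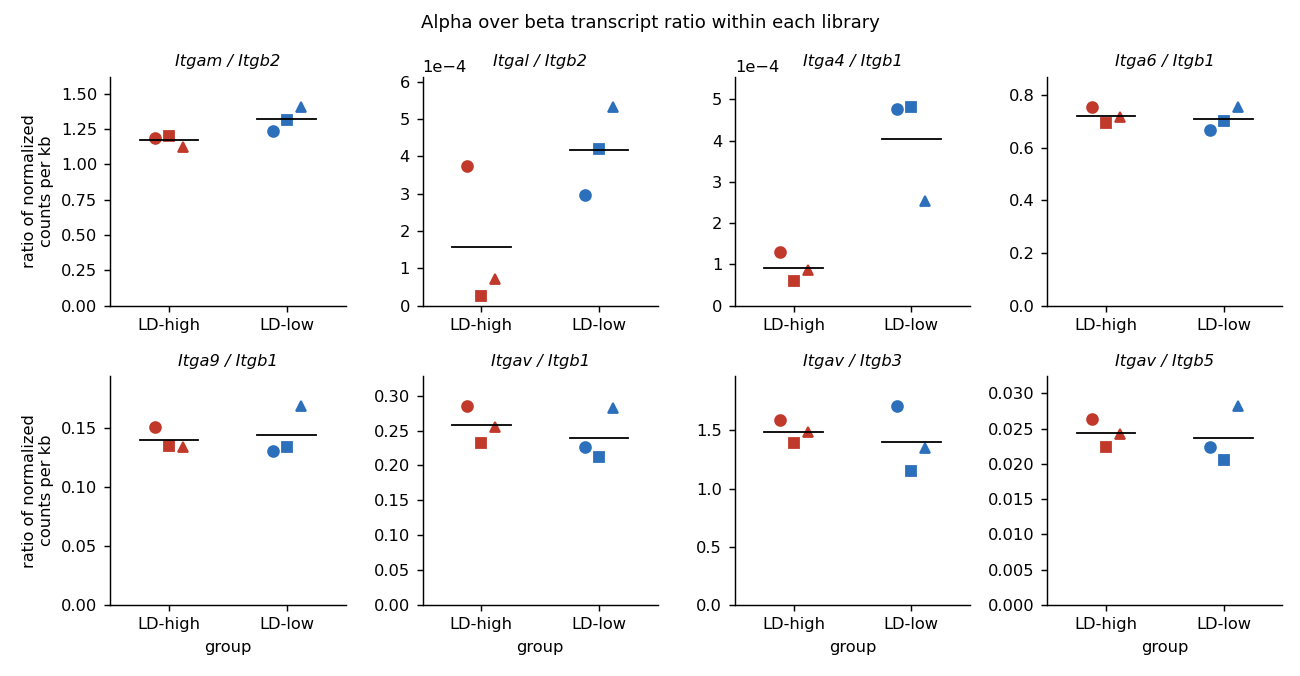
Ratio of alpha to beta normalized counts per kilobase within each library for 8 known pairs, LD-high (red) left and LD-low (blue) right; circles, squares and triangles are replicates 1, 2 and 3 and bars are group means, on axes that start at 0. The groups do not overlap for Itgam over Itgb2 and for Itga4 over Itgb1, and overlap for the other 6 pairs.

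Itgal (chromosome 7, 134439774 to 134478651), the alpha chain of the main lymphocyte integrin, was barely detected. It had 19.4, 1.12 and 3.34 normalized counts in LD-high replicates 1, 2 and 3, from 26, 1 and 2 reads, against 15.4, 19.5 and 22.3 in LD-low replicates 1, 2 and 3, from 22, 18 and 24 reads. LD-high replicate 1 lay within the LD-low range while the other LD-high libraries were at or below 3 reads, a level that cannot be told from 0 at this depth. The log2 change was -1.80 ± 0.78 with an adjusted p of 0.214, and Itgal passed the filter through all 3 LD-low libraries and 1 LD-high library. On the recovered reads edgeR gave -1.05 and DESeq2 -1.18, both smaller in size than the limma value. Over pooled reads, which ignore the spread between libraries, the ratio of LD-high to LD-low was 0.548 (exact 95% counting interval 0.340 to 0.862). In the fits without 1 library the log2 change ran from -2.71 to -1.08.

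Itga4 was the integrin with the lowest level and the one whose groups did not overlap. Its product, the alpha chain CD49d, carries leukocytes across vessel walls by binding Vcam1. It had 5.21, 2.24 and 3.34 normalized counts in LD-high libraries, from 7, 2 and 2 reads, against 20.3, 17.3 and 8.36 in LD-low libraries, from 29, 16 and 9 reads. All LD-high libraries lay below all LD-low libraries; in either direction the groups did not overlap for 1 of the 10 integrins and for 22.0% of all 14148 genes. The pooled ratio was 0.246 (exact 95% counting interval 0.116 to 0.476). In the fit without a filter the log2 change was -1.80 ± 0.59 with an adjusted p of 0.118, and DESeq2 gave -2.06 with 0.188, so Itga4 was not called in either of the alternatives that tested it, and 2 of its LD-high libraries were under the floor of 3 reads. Itga4 (chromosome 2, 79095583 to 79173280) overlaps Cerkl on the opposite strand, and Itga6, Itga9 and Itgav overlap predicted genes; where strand is not marked, reads of overlapping genes cannot be told apart.

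Markers of leukocytes, in which Itgal and Itga4 are known, did not all differ between the fractions. Beside the neutrophil markers, the 8 monocyte markers summed to 267 to 304 normalized counts in LD-high libraries, against 493 to 816 in LD-low libraries. Of the 5 tested, 1 was called, Chil3, where 1.82% of all tested genes were called lower. Chil3 is also a neutrophil gene and, like Ly6c2, was at 0 in every LD-high library. With 257 normalized counts pooled over the LD-low libraries, Chil3 alone carried much of the gap between the sums. It reached the filter through the LD-low libraries alone, which fixed its direction, so its test adds nothing to these values. The summed level of the 9 border-associated macrophage markers overlapped, at 16990 to 22421 in LD-high and 18256 to 19932 in LD-low libraries. None of 8 tested passed in limma, edgeR or DESeq2, with 2 at an unadjusted limma p under 0.05, where 19.8% of all tested genes had one. Singly they leaned lower in LD-high libraries: 1 of the 8 had a log2 change above 0, where 48.7% of all tested genes did. Their median log2 change was -0.52. Of 10 T and NK cell markers, only Lck and Klrb1c were among the deposited genes. These 2 summed to 5.96 to 23.5 in LD-high and 11.9 to 18.6 in LD-low libraries, which overlapped. The symbols Cd3e, Cd3d, Cd3g, Trac, Cd2, Nkg7, Ncr1 and Cd8a were absent, and the filter behind the deposited genes is not known. A gate on CD11b with low CD45 is set to leave out lymphocytes and leukocytes with high CD45. The part of other cells in the 2 low integrins was not tested. Neutrophil markers were highest in LD-low replicate 3, as was Itgal, whereas Itga4 was highest in LD-low replicate 1.

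Itgb1 and its alpha partners Itga6 and Itga9 did not pass the test, and for each the groups overlapped. Itga6 (chromosome 2, 71583673 to 71696473), a laminin receptor chain, had 13198, 11509 and 12257 normalized counts in LD-high libraries, against 12492, 11040 and 10947 in LD-low libraries. The log2 change of Itga6 was 0.10 ± 0.07 (adjusted p 0.479), and LD-high replicate 1 was its highest library. Itga9 (chromosome 9, 118515808 to 118810121), which binds tenascin and osteopontin, had 4295, 3626 and 3717 normalized counts in LD-high libraries, against 3956, 3438 and 3970 in LD-low libraries. Its log2 change of 0.03 ± 0.08 (adjusted p 0.871) turned to -0.01 with equal totals per library and to -0.04 and -0.03 without LD-high replicate 1 and LD-low replicate 2. The beta chain Itgb1 itself (chromosome 8, 131209554 to 131257100) had 15477, 14661 and 15155 normalized counts in LD-high libraries, against 16549, 13950 and 12826 in LD-low libraries. The LD-high values lay inside the LD-low range, with a log2 change of 0.07 ± 0.08 (adjusted p 0.680), and -0.01 without LD-low replicate 3. Per kilobase, the ratio of Itga6 to Itgb1 averaged 0.722 ± 0.030 in LD-high and 0.708 ± 0.044 in LD-low libraries, and that of Itga9 to Itgb1 averaged 0.139 ± 0.010 in LD-high and 0.144 ± 0.021 in LD-low libraries (SD, n = 3 each).

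Itgav and its beta partners Itgb5 and Itgb3 did not pass the test, and for each the groups overlapped. Itgav, a vitronectin receptor chain (chromosome 2, 83564554 to 83647073), had 8159, 6297 and 7169 normalized counts in LD-high libraries, against 6917, 5463 and 6701 in LD-low libraries. The groups overlapped, since LD-high replicate 2 lay below LD-low replicates 1 and 3. The log2 change was 0.18 ± 0.10 with an adjusted p of 0.333 and a 95% interval from 0.978-fold to 1.31-fold, and it ran from 0.07 without LD-low replicate 2 to 0.27 without LD-high replicate 2. With the replicate number as a block, the limma adjusted p of Itgav was 0.0503. Its partner Itgb5 (chromosome 16, 33829751 to 33949239) had 135529, 123171 and 129787 normalized counts in LD-high libraries, against 135363, 116361 and 104112 in LD-low libraries. LD-high replicate 1 was the highest and LD-low replicate 3 the lowest, and the log2 change was 0.13 ± 0.10 (adjusted p 0.475). Its other partner Itgb3 (chromosome 11, 104469370 to 104531790) had 4164, 3666 and 3920 normalized counts in LD-high libraries, against 3289, 3863 and 4038 in LD-low libraries. The log2 change of Itgb3 was 0.07 ± 0.08 (adjusted p 0.668), and -0.01 without LD-low replicate 1, which was its lowest library.

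Transcripts of Itgb5 exceeded those of its only known alpha partner many times over. Per kilobase, Itgb5 stood at 41.3 times Itgav in LD-high and 42.9 times in LD-low libraries, or 18.2 times in LD-high and 18.9 times in LD-low with the mean length of the coding transcripts. By contrast, Itgav stood at 1.49 ± 0.10 times Itgb3 in LD-high and 1.40 ± 0.28 times in LD-low libraries (SD, n = 3 each), or 3.40 times in LD-high and 3.20 times in LD-low with that mean length. Itgb3 is also the beta chain of the platelet fibrinogen receptor. The alpha chain of that receptor, Itga2b, had 1.49, 0 and 3.34 normalized counts in LD-high libraries and 7.72, 2.17 and 7.43 in LD-low libraries. Of the platelet markers, Pf4 reached at most 18.2 normalized counts and Ppbp was at 0 in every LD-high library and had at most 3.51 in LD-low. Gp9, the single gene of the platelet list tested, had 401, 459 and 402 normalized counts in LD-high libraries, against 621, 550 and 592 in LD-low libraries. It fell by 0.48 on the log2 scale (limma adjusted p 0.0322), where 1.82% of all tested genes were called lower. The call held in 1 of the 6 fits without 1 library. Its level lay far above those of Itga2b, Pf4 and Ppbp, so it did not behave like these platelet genes here. The part of platelets in the level of Itgb3 was not tested.

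Of the summed integrin signal per kilobase, Itgb5 made up 58.3, 58.8 and 59.6% in LD-high replicates 1, 2 and 3, against 58.1, 56.7 and 55.1% in LD-low replicates 1, 2 and 3. Itgam made up 15.7, 15.6 and 14.6% in LD-high libraries, against 16.3, 17.6 and 18.5% in LD-low libraries. For both genes these shares did not overlap between the groups, and neither did those of the very low Itga4. The normalized counts of Itgb5 and Itgam did overlap. How often such shares of other genes do not overlap was not counted. Itgb2 held 13.1 ± 0.1% in LD-high and 13.2 ± 0.1% in LD-low libraries (SD, n = 3 each). Beta chains together made up 78.5 ± 0.7% of the signal in LD-high and 76.4 ± 1.5% in LD-low libraries. These shares move together by construction, rest on the annotated lengths and were not tested.

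**Figure D4:**
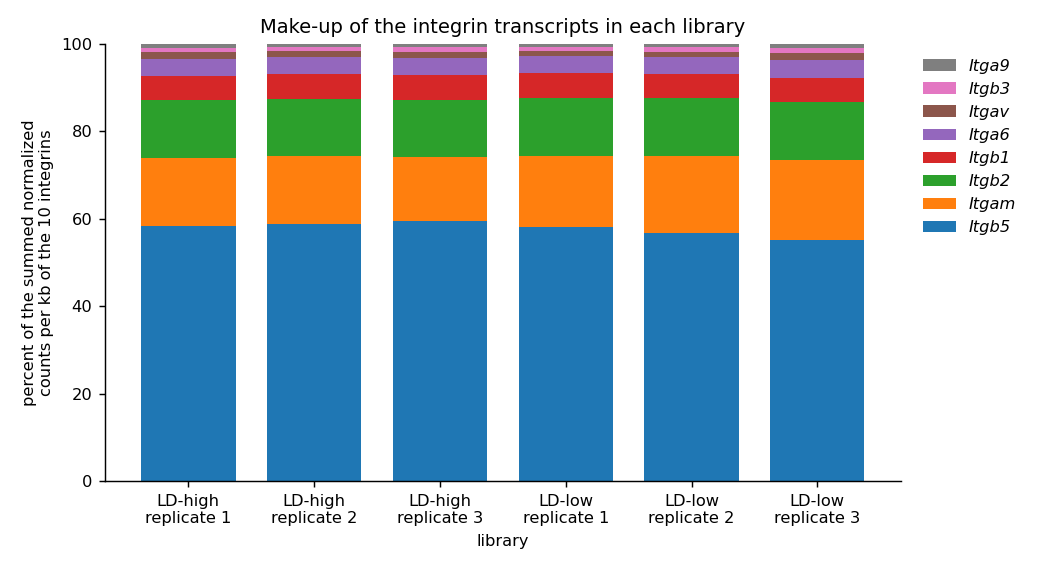
Percent of the summed normalized counts per kilobase of the 10 integrins held by each gene, for the LD-high libraries (left) and LD-low libraries (right); Itgal and Itga4 are too low to be drawn. Itgb5 holds 55.1 to 59.6% in every library and Itgam 14.6 to 18.5%.

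Within each group, the abundant integrins tended to be high or low in the same libraries. LD-high replicate 1 held the highest LD-high level of all 8, and LD-high replicate 2 the lowest of 7, the exception being Itgam, which was lowest in replicate 3. Among LD-low libraries, replicate 1 held the highest level of 6 and replicate 3 the lowest of 5. Across the 6 libraries, Pearson's r between the log2 levels of pairs of these genes ran from -0.55 to 0.97 with a median of 0.39 over 28 pairs, and was highest for Itgb1 with Itgb5 (0.966) and Itgb2 with Itgb5 (0.951). Of the 28 pairs, 23 lay above 0, and each pair below 0 held Itgb3, the lowest being Itgb1 with Itgb3 (-0.553). The points share their library, so these are descriptions over 6 libraries. How often other genes share these highest and lowest libraries was not counted, so the pattern may not be particular to integrins. Replicate 1 was the deepest library in each group, with 36894483 reads in LD-high and 38489448 in LD-low; the part of depth was not tested.

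None of the other integrin subunits on the list that could be tested passed. Of 17 further subunits and relatives listed, 12 were in the table and 6 were tested. Of these, 0 passed in limma, edgeR or DESeq2, with 1 at an unadjusted limma p under 0.05 (Itga5), where 19.8% of all tested genes had one. The log2 change was below 0 for 5 of the 6 and above 0 for 1, where 48.7% of all tested genes were above 0. Their median log2 change was -0.27. Itga5, the fibronectin receptor chain, had 1767, 1501 and 1868 normalized counts in LD-high libraries, against 2113, 1966 and 1919 in LD-low libraries. Its groups did not overlap, as for 11.7% of the tested genes in this direction, and its log2 change was -0.23 ± 0.09 (adjusted p 0.171). Itgae, a receptor chain for E-cadherin, did not overlap either, at 270, 270 and 220 in LD-high libraries and 279, 283 and 369 in LD-low libraries (log2 change -0.28 ± 0.15, adjusted p 0.328). Itgax, the CD11c chain raised in activated microglia, had 427, 286 and 280 in LD-high libraries, against 458, 363 and 358 in LD-low libraries (-0.27 ± 0.17, adjusted p 0.397). Itgb7, Itga10 and Itgb4 had log2 changes of -0.27 ± 0.33, -0.94 ± 0.63 and 0.23 ± 0.70. Below the filter, Itga2b, Itga3, Itga8, Itga11, Itgad and Itgb8 did not exceed 16.3 normalized counts in any library.

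Itgb2l, a relative of Itgb2 known in mice from neutrophils, was outside the filter and at 0 reads in all LD-high libraries, against 3.51, 9.74 and 23.2 normalized counts in LD-low replicates 1, 2 and 3, from 5, 9 and 25 reads. It was at least 10.8-fold lower in LD-high libraries, taking 3 reads over the group as the floor, and the bound was 5.63-fold without LD-low replicate 3 and 5.66-fold without LD-high replicate 1, computed after seeing the data. Its adjusted p was 0.0347 in the limma fit without a filter and 0.0109 with DESeq2. Neutrophil markers were at 0 in the same LD-high libraries, and their part in the difference of Itgb2l was not tested.

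Among genes that switch integrins on, talin and Rap1b rose while most did not pass. Of 26 tested activators and adaptors, 2 rose and 24 did not pass, where 1.53% of all tested genes were called higher. The log2 change was above 0 for 19 of the 26, with a median of 0.10, where 48.7% of all tested genes were above 0. An unadjusted limma p under 0.05 was found for 9 of the 26, where 19.8% of all tested genes had one. Tln1, which encodes the talin that binds beta tails, had 21137, 16170 and 17959 normalized counts in LD-high libraries, against 14504, 13781 and 13995 in LD-low libraries. All LD-high libraries lay above all LD-low libraries, as for 12.7% of tested genes, and LD-high replicate 1 stood highest. The log2 change was 0.38 ± 0.08 with an adjusted p of 0.0287, and the call was lost without LD-high replicate 1 or 3 and without LD-low replicate 2 or 3 (highest adjusted p 0.118), as well as without the variance trend (0.209). Rap1b, the GTPase that recruits talin to integrins, had 17406, 18960 and 18010 normalized counts in LD-high libraries, against 15710, 14608 and 14610 in LD-low libraries. Its log2 change was 0.28 ± 0.07 (adjusted p 0.0364), lost without LD-high replicate 2 or 3 and without LD-low replicate 2 or 3 (highest adjusted p 0.162) and without the variance trend (0.200), and it is a gene the study of these samples already pointed to. For Skap2, an adaptor of integrin activation in myeloid cells, the log2 change was 0.24 ± 0.07 (adjusted p 0.0882). The kindlin of blood cells, Fermt3, had one of 0.08 ± 0.06 and the Rap1 effector Apbb1ip one of -0.07 ± 0.07, both named after their values were seen. Choroid plexus markers moved in the direction of the 2 rises, and their part was not tested.

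No gene on the lists of inhibitors and of signalling genes passed in limma. On the list of integrin inhibitors and traffic regulators, 0 of 16 tested genes passed in limma, edgeR or DESeq2, with 2 at an unadjusted limma p under 0.05, and the median log2 change was 0.07. Rab21, which guides integrin recycling, had 1252, 1301 and 1239 normalized counts in LD-high libraries, against 1049, 1063 and 1048 in LD-low libraries (0.26 ± 0.08, adjusted p 0.0851), and the groups did not overlap. Rasa3, which turns Rap1 off, had a log2 change of 0.14 ± 0.07. Mdga1, known for binding neuroligins and not as an integrin inhibitor, was on the list in error and had one of 0.59 ± 0.29. On the list of signalling kinases, GTPases and adaptors, 0 of 21 passed in limma or edgeR and 2 in DESeq2, where DESeq2 called 5.85% of all genes. An unadjusted limma p under 0.05 was found for 6 of the 21, where 19.8% of all tested genes had one, and the median log2 change was 0.07. The log2 change was 0.22 ± 0.07 for the cytoskeletal GTPase Cdc42 (adjusted p 0.0779), 0.21 ± 0.07 for its relative Rac1 (adjusted p 0.116) and -0.46 ± 0.15 for Cbl, a ubiquitin ligase that acts on activated kinases (adjusted p 0.116). DESeq2 called Cdc42 and Rac1 higher, and of the activators Skap2 as well.

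Of the ligands, the complement gene C3 fell. Its cleaved product coats particles for the receptor of Itgam and Itgb2. C3 had 52.9, 66.1 and 55.1 normalized counts in LD-high libraries, against 124, 96.4 and 176 in LD-low libraries, with no overlap, and fell by 1.14 on the log2 scale (SE 0.26, adjusted p 0.0287). The call was lost without LD-high replicate 1 or 3 and without LD-low replicate 1 or 3, with the highest adjusted p at 0.152, and without the variance trend (0.168). Of 18 tested ligands, 1 fell and 17 did not pass, with a median of -0.11, where 1.82% of all tested genes were called lower. Spp1, encoding the ligand osteopontin, had 162, 782 and 189 normalized counts in LD-high libraries, against 842, 1195 and 394 in LD-low libraries, so the groups overlapped (-1.35 ± 0.46, adjusted p 0.120). For the laminin gene Lamb2 the log2 change was 0.25 ± 0.09, with an adjusted p of 0.137. Neutrophil markers moved in the direction of C3, and LD-low replicate 3 was highest for both; their part was not tested.

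**Figure D5:**
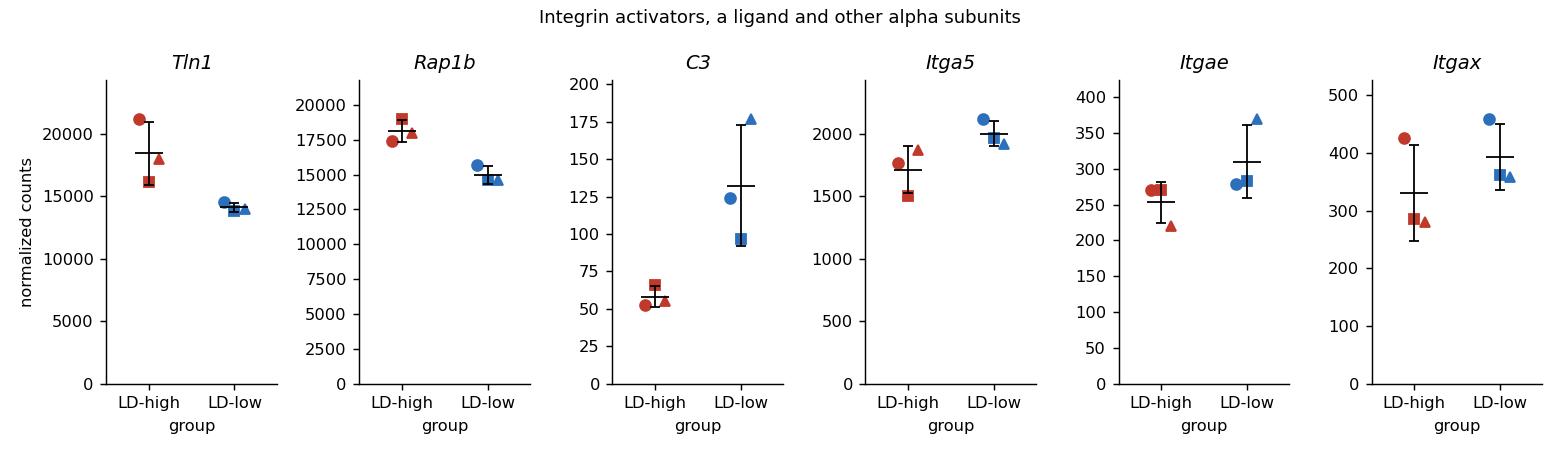
Normalized counts of Tln1, Rap1b, C3, Itga5, Itgae and Itgax, LD-high (red) left and LD-low (blue) right; circles, squares and triangles are replicates 1, 2 and 3, and black bars are mean ± SD (n = 3 each), on axes that start at 0. Tln1 and Rap1b lie higher and C3, Itga5 and Itgae lower in all LD-high libraries, and of these 5 only Tln1, Rap1b and C3 passed the test.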

How the data were processed

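RNA was measured in 3 LD-high and 3 LD-low samples. The values deposited are a normalized signal: read counts per gene that the authors divided by 1 size factor per library; 100% of values came out as whole reads within 0.01 reads. The submitters' processing notes name FastQC 0.11.4, STAR 2.5.1b, the mm9 build and DESeq2; which annotation, strand setting and filter were used is not given in the sources used here. Here, log2(normalized count + 1) was tested with limma 3.58.1 (R 4.3.3; variance trend, group as the only term) for genes with at least 10 normalized counts in 3 or more libraries. This kept 11624 genes. P-values are 2-sided, adjusted over all tested genes by Benjamini-Hochberg with 0.05 as the threshold, and log2 changes of low genes depend on the pseudocount. edgeR 4.0.16 and DESeq2 1.42.0 on the recovered reads were alternatives. Intervals of log2 and fold changes rest on the spread between libraries; intervals of pooled reads and the floor of 3 reads cover counting error only, since reads carry no molecular identifiers. Gene spans and transcript lengths came from GENCODE vM1 (NCBIM37, that is mm9), which matched 12949 of 14148 symbols.

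The integrins, the lists of related genes and markers, and the tests were chosen with earlier results of these data known. Named are the 10 integrins, other integrin subunits, and of each related list the genes past the threshold and, where fewer than 3 passed, those with the smallest p up to 3. On simulated counts for this comparison (11643 genes), limma recovered 65% of 100 genes with a log2 change of 0.5 and 100% of 100 genes with one of 1, all above 50 normalized counts, and 4.07% of calls were of genes left as they were. The simulation gave every gene the same spread between libraries beyond counting error and drew the libraries independently. These shares therefore need not hold for the real libraries.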

Additional observations from a re-analysis of the deposited data

How the results depend on the processing

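No integrin that entered the fit was called with other pseudocounts (0.5 and 5), no filter or a filter of 50, TMM factors, equal totals, no variance trend, edgeR, DESeq2, the replicate number as a block, or without any 1 library; Itga4 entered only without a filter and in DESeq2, and Itgal not with the filter of 50. Over all genes, 390 calls became 15 without the trend, 715 with DESeq2 and 43 to 407 without 1 library; equal totals gave 118 higher and 233 lower, against 178 and 212, and moved the median of all genes by -0.04. Of the related lists, 3 calls (Tln1, Rap1b, C3) became 0 without the trend, 6 with DESeq2 and 0 to 3 without 1 library. The genes called without 1 library were not always among these 3. Cbl was called without LD-high replicate 1, Spp1 without LD-high replicate 2 and Cdc42 without LD-low replicate 1. With the replicate block there were 1090 calls over all genes and 12 on the related lists. Same-numbered libraries deviated together with r = 0.161, 0.132 and 0.064, each highest for its own number. Such values cannot tell shared mice from another feature of same-numbered libraries such as depth, and neither was tested. The labels do not state a pairing, so the main fit was left without the block. If the samples are paired, the main fit ignores it. With the block, the limma adjusted p of Itgav was 0.0503, just above the threshold, against 0.333 in the main fit. The change of Itga9 was -0.0093 with equal totals. Without 1 library the log2 changes ran from -0.042 to 0.080 for Itga9, -0.019 to 0.14 for Itgb2, -0.0095 to 0.17 for Itgb1 and -0.014 to 0.13 for Itgb3. The causes were not tested. Depth limits Itgal and Itga4, with 93 and 65 reads over all libraries.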

Other observations

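By Pearson's r of log2 levels over the 6 libraries, among 11623 other tested genes, the genes most like Itgal were Col9a2 (0.996), Cd3eap (0.982) and Loxl4 (0.982). Col9a2 had 17.1, 2.24 and 5.01 normalized counts in LD-high replicates 1, 2 and 3, against 14.7, 15.2 and 16.7 in LD-low replicates 1, 2 and 3, so a low collagen gene showed the same single high LD-high library as Itgal. The genes most like Itgav were Rpp25l (0.992), Ptprs (0.992) and Parp11 (0.990). Ptprs, a receptor tyrosine phosphatase, had 3481, 3000 and 3259 normalized counts in LD-high libraries, against 3184, 2699 and 3045 in LD-low libraries. With 6 libraries and so many genes, such values describe these libraries and say nothing of shared function.

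No tested marker of the cell types below passed limma between the fractions, unlike the choroid plexus epithelium markers above, of which 3 of 5 tested rose. Of tested oligodendrocyte, astrocyte, neuron, B cell and endothelial or mural markers, 0 of 5, 0 of 3, 0 of 1, 0 of 1 and 0 of 4 were called by limma, with 3, 1, 0, 0 and 1 at an unadjusted p under 0.05. Over all tested genes these shares were 3.36% and 19.8%. DESeq2 called 2 oligodendrocyte markers, and both edgeR and DESeq2 called 1 endothelial or mural marker, where DESeq2 called 5.85% and edgeR 3.24% of all genes. Summed myelin markers ran from 5458 to 6013 normalized counts in LD-high and from 4641 to 4896 in LD-low libraries, and summed astrocyte markers from 7999 to 8878 in LD-high and from 6500 to 7854 in LD-low libraries, each without overlap. Of single genes, 22.0% did not overlap in either direction.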
